A study of Schizosaccharomyces pombe with 6 samples.

Results

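The right end of chromosome III of fission yeast was taken as all array probes on that chromosome with a midpoint at position 2250001 or beyond. That gave 651 of the 42641 nuclear probes on the array (1.53%), spread over 190 kb up to 2439511. The rule used position alone and no measured value, but the region was chosen with earlier results of these data known. Of these probes, 3 carried an outlier flag and were left out, and the other 648 were averaged in windows of 1 kb. The 175 windows with at least 2 probes were kept, of 12039 such windows in the nuclear genome. A further 5 windows with a single probe were not tested. Probe spacing had a median of 255 bp, but no probe lay between 2319830 and 2324945, over the retrotransposon Tf2-13, or between 2433196 and the last probe at 2439481.

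The strain tested carried cdc25-22 and rad3∆ and the strain it was set against carried cdc25-22 alone; the labels call the second one WT, and so does the text here. Each strain had 3 arrays, which the labels number 1 to 3. Cells of both strains grew at 25 °C, spent 4 h at 36.5 °C, were returned to 25 °C and received 6 mM hydroxyurea (HU). The sample titles share the number 60, for which no unit is given. The label of 1 rad3∆ input channel (replicate 3) reads cdc25-23. The labels name an IP and an input channel but describe RNA, and the arrays were read here as DNA precipitated with Ssb1, the large subunit of RPA, against input DNA. Nothing in the labels says that the replicates were separate cultures, so p-values measure the spread between these arrays, which may be technical.

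RPA coats single-stranded DNA as soon as it is exposed, above all at replication forks, where unwinding runs ahead of synthesis when HU starves cells of deoxyribonucleotides. Rad3, the fission yeast kinase of the ATR family, is recruited to RPA-coated DNA and holds back origins that have not yet fired. The cdc25-22 allele gives a heat-sensitive form of the phosphatase that starts mitosis, so that warm cells stop before mitosis and enter the next S phase together after cooling. Both ends of chromosome III carry the tandem ribosomal RNA genes (rDNA), whose repeats hold origins and barriers that stop forks. In the ASM294v3 reference the first 18S rRNA gene of the right end starts at 2440994, 1483 bp beyond the last probe, so the probes stop short of the repeats.

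The sequences shown are those at the centre of the highest window of both strains and at the centre of the window with the largest strain difference, because these windows set the range of the values below. Both were read from the plus strand of ASM294v3, and the first was cut short where the vms1 transcript begins. Capitals mark runs of at least 5 identical A or T letters (AAAAA or TTTTT, which covers both strands).
chrIII:2382351-2382452, upstream of vms1: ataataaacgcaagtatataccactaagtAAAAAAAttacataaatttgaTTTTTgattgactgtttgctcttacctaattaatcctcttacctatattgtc
chrIII:2428351-2428650, beyond SPCC569.05C: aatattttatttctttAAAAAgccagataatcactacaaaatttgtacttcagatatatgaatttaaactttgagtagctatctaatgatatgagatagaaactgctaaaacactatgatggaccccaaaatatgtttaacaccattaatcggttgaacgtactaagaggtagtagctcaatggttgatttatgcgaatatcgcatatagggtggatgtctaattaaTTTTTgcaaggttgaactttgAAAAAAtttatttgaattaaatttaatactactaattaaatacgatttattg
The first stretch held 74.5% A+T, against a median of 63.7% over all reference stretches of its length, of which 7.42% were as rich or richer. The second held 72.7% A+T, against a median of 64.0%, with 5.29% of stretches as rich or richer. Such runs were common in the genome, since 52.3% of stretches of 102 bases and 85.9% of stretches of 300 bases held at least 1.

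Values are log2 of IP over input, with 0 at the median nuclear probe of each array, so that 0 is the array's median and not absence of RPA. The median background-subtracted IP signal over nuclear probes was 635, 41.4 and 1143 on rad3∆ arrays 1, 2 and 3, against 444, 241 and 787 on the WT arrays. The dim array was rad3∆ replicate 2, on which 79.6% of nuclear probes and 93.4% of the probes of this chromosome end were well above background in the IP channel. On the other arrays 97.4% to 99.8% of the end's probes were, and none of the end's probes was saturated in either channel. The deletion showed in the input of 24 of the 32 rad3 probes (chromosome II, 904184 to 913629), whose mean log2 level relative to the array median was -7.18, -4.83 and -5.00 on the rad3∆ arrays and -0.38, -0.22 and -0.31 on the WT arrays. The number of arrays limits the precision of every value below.

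Averaged over its 175 windows, the chromosome end stood above the array median on all 6 arrays and higher on each rad3∆ array than on any WT array. The mean was 0.36, 0.66 and 0.65 on the rad3∆ arrays, against 0.12, 0.21 and 0.31 on the WT arrays. The strain means were thus 0.56 ± 0.17 in rad3∆ and 0.21 ± 0.09 in WT (SD, n = 3 each), a difference of 0.34. The exact two-sided permutation p was 0.10, the smallest that 3 arrays against 3 can give. With another background correction (normexp) the difference was 0.24 and the exact permutation p was 0.20, so the strains no longer separated fully. Arrays with the same number shared a slide, and the difference within slides 1, 2 and 3 was 0.24, 0.45 and 0.34. Over all other nuclear windows the means were -0.02, -0.02 and -0.07 on the rad3∆ arrays and -0.05, -0.01 and -0.02 on the WT arrays, with a difference of -0.0071.

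The input DNA of the same windows showed no such gap. Its mean log2 level relative to the array median was -0.02, -0.11 and -0.09 on the rad3∆ arrays, against -0.02, -0.13 and -0.10 on the WT arrays (difference 0.0085; exact permutation p = 0.80). No window of the end passed the limma test for a strain difference in input, of 0.0% over all windows, and 0 reached an unadjusted p under 0.05 in either direction.

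Windows count as enriched where the fitted log2 level reached 0.5 and as depleted where it was -0.5 or less, in both cases with a limma p under 0.05 after Benjamini-Hochberg adjustment over all 12039 windows. In rad3∆, 107 of the 175 windows (61.1%) were enriched, against 18.8% of all windows, and 1 was depleted, against 21.3% of all. In WT, 43 (24.6%) were enriched, against 18.5% of all windows, which is near the background, and 7 were depleted, against 20.8% of all. Over chromosome III without its ends, 29.6% of 1913 windows were enriched in rad3∆ and 35.8% in WT. Depleted there were 87 windows in rad3∆ and 47 in WT. At the left end of III, 26.9% of 186 windows were enriched in rad3∆ and 34.9% in WT, and 7 were depleted in each strain. All 43 windows of the right end enriched in WT were also enriched in rad3∆. Leaving out 1 array at a time gave 80 to 118 enriched windows in rad3∆ and 33 to 44 in WT.

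**Figure D1:**
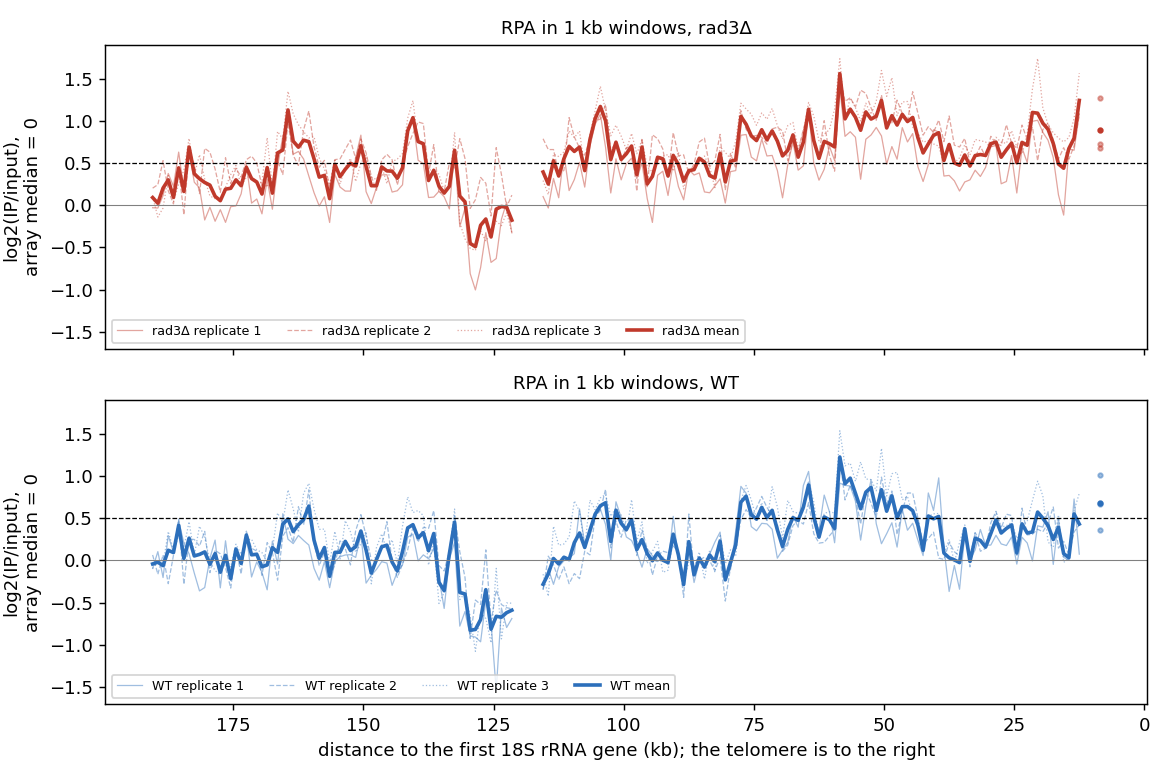
The mean log2(IP/input) of each 1 kb window (vertical axis, 0 is the array median) is plotted against its distance in kb to the first 18S rRNA gene, for rad3∆ above and WT below; thin lines are the 3 arrays, the thick line is their mean, and the dashed line marks 0.5. Both strains dip before the gap left by Tf2-13 and are highest at the vms1 window, where the rad3∆ arrays read 1.39 to 1.73 and the WT arrays 0.92 to 1.54.

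The enriched windows of rad3∆ joined into a long block. A run was 2 or more enriched windows with gaps of no more than 1 window. The longest reached 70 kb in rad3∆, from 2359001 to 2429000 with 66 enriched windows. It was the longest of 335 runs of that strain in the genome, and the next longest was 31 kb. In WT the longest run at this end was 24 kb, from 2373001 to 2397000, the 8th longest of 295. The outer part of the rad3∆ run was fragile. It stopped at 2404000, with 41 to 45 kb, in all fits with the replicate block, without the dye term, with another centring, background correction, loess, scaling or G+C correction, or on well-measured probes alone. It also stopped there, with 42 to 45 kb, when WT replicate 1, WT replicate 3, rad3∆ replicate 2 or rad3∆ replicate 3 was left out, but the run was still the longest of its strain in each of these fits. The WT run shortened to 15 kb without WT replicate 3 and to 16 kb without WT replicate 1, and spanned 14 to 25 kb in the refits named before.

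The profile itself was shared between the strains. Fitted levels of the 175 windows in rad3∆ and WT had a Pearson r of 0.91 and a Spearman rho of 0.90, given as a description over neighbouring windows that share probes' base composition and slides. Between single arrays r ran between 0.57 and 0.88. The highest was between rad3∆ replicate 3 and WT replicate 3, which shared a slide and a dye orientation. Within a strain r was 0.64 to 0.85. The fitted levels of both strains also share 1 dye term. The median SD of a window over the 3 arrays was 0.22 in rad3∆ and 0.18 in WT.

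The highest window of both strains began at 2382001 and covered the start of vms1, whose Saccharomyces cerevisiae counterpart acts in the release of stalled nascent chains from ribosomes. It read 1.39, 1.55 and 1.73 on the rad3∆ arrays, against 0.92, 1.22 and 1.54 on the WT arrays. The groups overlapped there, since the highest WT array exceeded the lowest rad3∆ array, and the fitted difference of 0.33 ± 0.16 (SE) did not pass (limma adjusted p = 0.64). The 2 windows that followed it were the 4th and the second highest in WT, with means over arrays of 1.02 ± 0.21 in rad3∆ and 0.91 ± 0.20 in WT at 2383001, and 1.14 ± 0.23 in rad3∆ and 0.97 ± 0.15 in WT at 2384001 (SD, n = 3 each).

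The 3rd highest window of rad3∆, at 2428001, lay outside coding sequence, had a second copy, and is described below. The other high windows lay over spx2, over the start of trm732, a tRNA methylation gene, at the border of utp25 and pcy1, and in SPCC569.06. At 2390001, in spx2, the level was 0.82, 1.31 and 1.60 on the rad3∆ arrays, against 0.20, 0.99 and 1.33 on the WT arrays. At 2336001, upstream of and over the start of trm732, it was 1.08, 1.02 and 1.41 in rad3∆, against 0.61, 0.59 and 0.74 in WT. The strains did not overlap there (fitted difference 0.52 ± 0.15 SE, limma adjusted p = 0.29). At 2376001, over the adjoining ends of utp25 and pcy1, it was 1.12, 1.07 and 1.22 in rad3∆, against 1.05, 0.69 and 0.94 in WT. At 2420001, in SPCC569.06, it was 1.005, 0.53 and 1.74 in rad3∆, against 0.41, 0.37 and 0.94 in WT, the widest spread of the rad3∆ arrays among these windows.

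A trough cut through the inner part. The 11 windows from 2309001 to 2320000, just inside Tf2-13 (followed inward while the WT mean stayed below 0), averaged -0.45, 0.27 and -0.32 on the rad3∆ arrays, against -0.81, -0.42 and -0.63 on the WT arrays. Only rad3∆ replicate 2, the dim array, was above 0 there, and the strains overlapped. Bounds set by low WT values lower the WT mean, so no strain test is read from these windows. The 7 windows of the end that were depleted in WT all lay in this trough, and 1 of them was depleted in rad3∆ too. Starting from windows depleted in WT favours higher levels in rad3∆, so this count is a description. Its lowest window, at 2312001 in SPCC965.13, read -1.01, 0.064 and -0.54 in rad3∆, against -0.91, -0.47 and -1.08 in WT. Next to the trough, the window at 2308001 with the only 5S rRNA gene of this end was enriched in rad3∆ but not in WT, at 0.65, 0.44 and 0.86 in rad3∆, against 0.21, 0.54 and 0.61 in WT. The WT mean over arrays was 0.45, close to the threshold of 0.5, which was applied to the fitted level with the dye term. The strains overlapped (difference 0.20, exact permutation p = 0.40). Parts of this window match chromosomes I and II at 88.2% to 91.3% identity, and cross-hybridisation was not tested.

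The strain difference was small in most windows and of 1 sign. The fitted difference, rad3∆ minus WT, was above 0 in 174 of the 175 windows, against 45.3% of all windows, with a median of 0.33, against -0.022 over all windows. All 3 rad3∆ arrays exceeded all 3 WT arrays in 61 windows (34.9%), against 6.06% of all windows, and the opposite occurred in 0, against 4.63% of all. The rad3∆ array was the higher on every slide in 130 windows, against 15.6% of all windows for that pattern. Neighbouring windows are not independent, so these counts describe 1 stretch of chromosome. Other ends showed the same sign in most windows. The fitted difference was above 0 in 98.4% of windows at the right end of chromosome II (median 0.42) and 97.1% at that of I (median 0.37). At the left ends of I, II and III it was above 0 in 86.3%, 68.4% and 34.4% of windows.

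No single window passed the strain test. With limma, 0 of 175 windows had an adjusted p under 0.05, against 0.108% of all windows higher in rad3∆ and 0.0% lower; the lowest adjusted p was 0.092. At an unadjusted p under 0.05, 63 windows (36.0%) were higher in rad3∆, against 5.11% of all, and 0 were lower, against 3.0%. With the slide as a replicate block 1 window passed (lowest adjusted p = 0.043).

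Averaging over 10 kb showed the difference above the spread of the arrays in a few places. Of the 18 bins of the end, 3 rose in rad3∆ at an adjusted p under 0.05 (limma), against 2.69% of all 1225 bins, and 0 fell, against 0.0816% of all. All 18 bins had a positive difference, with a range of 0.18 to 0.50, and 17 were higher at an unadjusted p under 0.05, against 10.1% of all bins, with 0 lower, against 5.88%. The strains did not overlap in 11 of the 18, against 9.88% of all bins. With the slide as a replicate block 13 of the 18 passed. The 3 calls were not stable when 1 array was left out. Without WT replicate 2, WT replicate 3, rad3∆ replicate 2 or rad3∆ replicate 3, 0 bins passed, at lowest adjusted p of 0.051 to 0.079 (limma). Without WT replicate 1, 8 passed, and without rad3∆ replicate 1, 4 passed. Each such refit also had fewer arrays from which to estimate the spread.

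The bin with the lowest p, at 2420001, covered SPCC569.06, SPCC569.05C, SPCC569.04 and the edge of SPCC569.03. It read 0.63, 0.76 and 1.06 on the rad3∆ arrays, against 0.28, 0.33 and 0.43 on the WT arrays (difference 0.47 ± 0.08 SE, limma adjusted p = 0.015). This bin includes the window at 2428001, whose second copy and low WT probe are described below. Parts of its windows at 2422001 and 2427001 also have second copies. The bin without these was not tested. The bin at 2320001 held the 5 measured windows beyond Tf2-13, over arz1, tyr1 and part of ubp12. It read 0.22, 0.58 and 0.42 in rad3∆, against -0.16, -0.14 and 0.0039 in WT (difference 0.50 ± 0.10, SE; adjusted p = 0.026, limma). The bin at 2400001, over apl4, cwf18, nsa2, rpp103 and dhm1, read 0.41, 0.75 and 0.66 in rad3∆, against 0.16, 0.15 and 0.26 in WT (difference 0.42 ± 0.09, SE; adjusted p = 0.049, limma). In each of these bins every rad3∆ array exceeded every WT array.

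**Figure D2:**
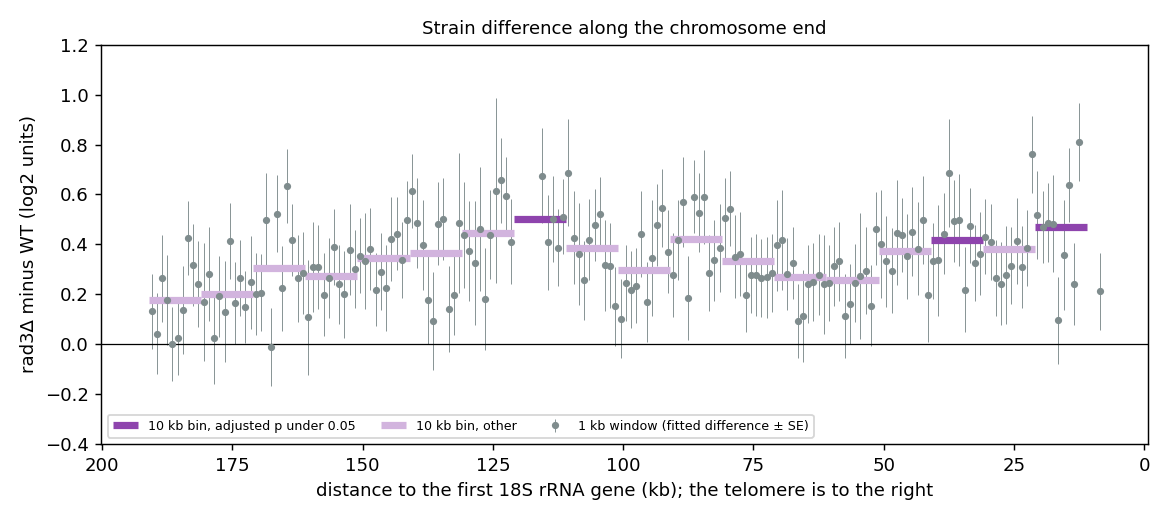
The fitted strain difference in log2 units (rad3∆ minus WT) is plotted against the distance in kb to the first 18S rRNA gene, with points for 1 kb windows (bars are SE) and horizontal bars for 10 kb bins, dark where the adjusted p was under 0.05. All 18 bins lie above 0, between 0.18 and 0.50, and 3 of them are dark.

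The difference did not grow steadily toward the rDNA. The innermost bins, at 2250001 and 2260001, had the smallest differences, 0.18 ± 0.07 and 0.20 ± 0.11 (SE), while the bins with the highest levels, at 2380001 and 2390001, differed by 0.26 ± 0.09 and 0.37 ± 0.12. Levels were 1.03 ± 0.20 in rad3∆ and 0.77 ± 0.18 in WT in the bin at 2380001, and 0.23 ± 0.24 in rad3∆ and 0.030 ± 0.052 in WT in the bin at 2260001 (SD, n = 3 each). With a boundary at 2360001 that was drawn after the values were seen, the outer 70 windows averaged 0.80 ± 0.20 in rad3∆ and 0.45 ± 0.11 in WT, and the inner 105 averaged 0.39 ± 0.16 in rad3∆ and 0.06 ± 0.09 in WT. The differences of these means were 0.35 and 0.33. Of the outer 70 windows, 66 were enriched in rad3∆ and 35 in WT; of the inner 105, 41 were in rad3∆ and 8 in WT.

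The largest window difference lay at 2428001, beyond the spermidine transporter gene SPCC569.05C, where the second sequence above was read. The window read 1.08, 1.08 and 1.56 on the rad3∆ arrays, against 0.07, 0.42 and 0.79 on the WT arrays (difference 0.81 ± 0.16, SE; limma adjusted p = 0.092). A single probe of its 5, at 2428742, read -2.11 on WT array 1, against 0.10 and 1.11 on WT arrays 2 and 3. Without that probe the strain means were 1.13 ± 0.28 in rad3∆ and 0.61 ± 0.11 in WT (SD, n = 3 each), and the difference was 0.52. That is below the 0.76 at 2419001, so the rank of the window rested on this probe. The same probe lay outside the stretch printed above, which ends at 2428650. The probe at 2428518, within that stretch, averaged 1.12 in rad3∆ and 0.58 in WT. The second largest window difference, at 2419001, read 0.99, 0.93 and 1.38 in rad3∆, against -0.0061, 0.31 and 0.71 in WT (difference 0.76 ± 0.15, SE; adjusted p = 0.10, limma).

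Both of these windows had a second copy near the left end of the same chromosome in the reference. The window at 2428001 matched chromosome III from 34836 to 35839 at 88.9% identity, and that at 2419001 matched 41886 to 42775 at 85.4%. The left-end window at 35001, which holds most of the first of these copies, read 1.07, 0.39 and 1.25 in rad3∆, against 0.81, 0.40 and 0.92 in WT (difference 0.19 ± 0.20, SE; limma adjusted p = 0.88). The strains overlapped there, and the part of cross-hybridisation in these values was not tested. In all, 5 windows of the right end had a second copy over at least 50% of their length, and without them the mean strain difference of the end was 0.34, with 102 windows enriched in rad3∆ and 40 in WT.

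The next differences in size were at 2403001, in apl4, a gene of the AP-1 adaptor that sorts vesicle cargo, at 2330001, in ubp12, a deubiquitinating enzyme gene, and at 2325001, in arz1. They measured 0.69 ± 0.22, 0.69 ± 0.21 and 0.68 ± 0.19 (SE), with limma adjusted p of 0.35, 0.35 and 0.29. At 2325001 the level was 0.10, 0.79 and 0.29 in rad3∆, against -0.34, -0.35 and -0.16 in WT, so that the arrays of the strains lay on opposite sides of 0. The smallest differences were all near the inner boundary, in bgs4, sal3 and pdi5, and lay between -0.0091 and 0.043. At 2254001, in the cell-wall glucan synthase gene bgs4, the level was 0.22, 0.014 and 0.042 in rad3∆, against 0.10, 0.060 and 0.12 in WT.

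Beyond the last window only 2 single probes were left. That at 2433196 read 0.59, 0.87 and 1.02 on the rad3∆ arrays, against 0.062, 0.53 and 0.73 on the WT arrays. The outermost, at 2439481, read 0.83, 0.56 and 1.33 on the rad3∆ arrays, against 0.57, 0.10 and 0.75 on the WT arrays. The strains overlapped at both probes. The last window, at 2432001, which has a second copy on the left end at 92.7% identity, was enriched in both strains.

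Of 72 protein-coding genes annotated at this end, 67 had at least 2 probes. In rad3∆, 40 of them (59.7%) were enriched, against 16.2% of all 4145 coding genes tested, and 0 were depleted, against 21.3%. In WT, 17 (25.4%) were enriched, against 16.5% of all coding genes, and 4 were depleted, against 21.1%. All 17 were among the 40. No gene passed the strain test (0 of 67 coding genes and 0 of all 144 genes of any class with at least 2 probes, against 0.0% of 8198 genes; limma), although the difference was above 0 in all 67. At an unadjusted p under 0.05, 31 coding genes were higher and 0 were lower; over all genes tested 5.71% were higher and 2.44% lower. The strains did not overlap in 24 of the 67 (35.8%), against 5.74% of all coding genes. The 77 non-coding RNA genes behaved alike, with 45 enriched in rad3∆ and 18 in WT; over all genes of any class 18.2% were enriched in rad3∆ and 17.7% in WT.

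The 10 highest genes by the mean of the strains were vms1, spx2, hom2, ppk38, mug9, mug170, SPCC569.06, pcy1, SPCC569.02C and sac32, and 6 of them lay between 2376299 and 2396196. The gene vms1 read 0.99, 1.36 and 1.25 on the rad3∆ arrays, against 0.92, 0.90 and 1.25 on the WT arrays (difference 0.17 ± 0.14, SE; limma adjusted p = 0.81). The SPX and EXS domain gene spx2, of a family tied to phosphate handling, read 0.85, 1.13 and 1.33 in rad3∆, against 0.50, 0.70 and 0.99 in WT. The methionine and threonine pathway gene hom2, for aspartate semialdehyde dehydrogenase, read 0.55, 1.35 and 1.13 in rad3∆, against 0.47, 0.57 and 1.12 in WT. All 10 were enriched in both strains, and their differences lay within the overlap of the arrays.

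Around this block, ppk38, a protein kinase gene of the Ark1/Prk1 family, read 0.69, 1.10 and 1.27 in rad3∆, against 0.38, 0.54 and 0.98 in WT. Its neighbour mug170, for an arrestin-like adaptor, read 0.76, 1.07 and 1.17 in rad3∆, against 0.45, 0.78 and 0.70 in WT. The gene pcy1, whose enzyme serves phosphatidylcholine synthesis, read 0.66, 0.81 and 1.05 in rad3∆, against 0.78, 0.39 and 0.74 in WT. The strains overlapped in all 3 genes.

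The 5 lowest coding genes were SPCC965.13, SPCC965.14C, SPCC1494.01, taf13 and dpe2, of which the first 4 lie side by side in the trough. SPCC965.13, a membrane transporter gene, read -0.80, 0.15 and -0.48 in rad3∆, against -0.85, -0.47 and -0.86 in WT. SPCC965.14C, annotated as a cytosine deaminase gene, read -0.57, -0.12 and -0.44 in rad3∆, against -0.49, -0.59 and -0.88 in WT. These 4 genes were the depleted ones in WT, and none of them was depleted in rad3∆. A choice by depletion in WT favours higher levels in rad3∆, so this too is a description.

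The 5 largest gene differences were at ecl1, SPCC1494.01, cwf18, arz1 and taf13. The lifespan gene ecl1 read 0.61, 0.90 and 0.70 on the rad3∆ arrays, against 0.12, 0.05 and 0.26 on the WT arrays (difference 0.60 ± 0.14, SE; limma adjusted p = 0.28). The spliceosome-associated gene cwf18 read 0.27, 0.61 and 0.56 in rad3∆, against -0.37, -0.013 and 0.041 in WT (difference 0.59 ± 0.15, SE; limma adjusted p = 0.33). The TFIID subunit gene taf13 read -0.15, -0.071 and -0.28 in rad3∆, against -0.85, -0.53 and -0.67 in WT, and arz1 read 0.041, 0.73 and 0.22 in rad3∆, against -0.23, -0.17 and -0.28 in WT. These 4 did not overlap between strains, whereas SPCC1494.01, an oxidoreductase gene, did, at -0.45, 0.34 and -0.38 in rad3∆ and -1.10, -0.45 and -0.72 in WT. A ranking by the difference itself favours genes without overlap, which made up 35.8% of the 67 coding genes of this end. None of the 5 passed the strain test. The 5 smallest differences, of 0.11 to 0.16, were at SPCC1827.05C, bgs4, atp5, csl4 and utp25.

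A further 7 genes were picked because earlier results of these data named them. The serine/threonine kinase gene nnk1 read 0.26, 0.57 and 0.54 in rad3∆, against 0.07, -0.12 and 0.08 in WT, with no overlap. The gene puf6, for a Puf family RNA-binding protein, read 0.56, 0.73 and 0.75 in rad3∆, against 0.19, 0.26 and 0.29 in WT, with no overlap. The purine synthesis gene ade5 read 0.31, 0.72 and 0.74 in rad3∆, against 0.20, 0.34 and 0.45 in WT, and the ankyrin repeat gene dhm1 read 0.65, 0.56 and 0.96 in rad3∆, against 0.46, 0.37 and 0.73 in WT. The alanine racemase gene alr1 read 0.23, 0.40 and 0.70 in rad3∆, against -0.0048, -0.055 and 0.38 in WT. SPCC569.05C read 0.35, 0.60 and 0.80 in rad3∆, against 0.27, 0.20 and 0.22 in WT, and SPCC569.04 read 0.61, 0.65 and 1.06 in rad3∆, against 0.87, 0.28 and 0.68 in WT. Of these 7 genes, nnk1, puf6 and SPCC569.05C did not overlap between strains, against 35.8% of the 67 coding genes of this end and 5.74% of all coding genes. None of the 7 passed the strain test.

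**Figure D3:**
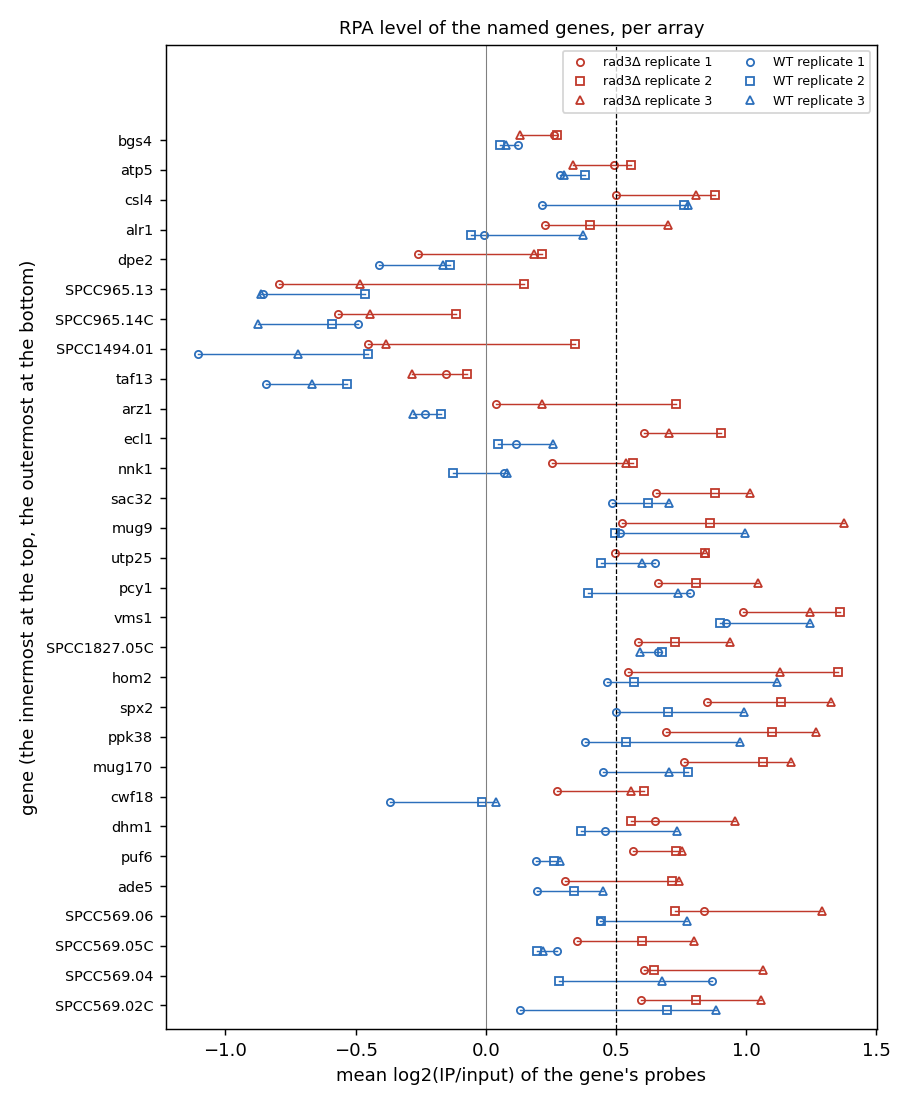
The mean log2(IP/input) of the named coding genes is plotted for each array, rad3∆ above WT within each gene, with genes ordered from the innermost at the top to the outermost at the bottom; symbols are replicates 1 to 3, horizontal lines span the 3 arrays, and the dashed line marks 0.5. The trough from SPCC965.13 to taf13 and the high block around vms1, where WT reads 0.90 to 1.25, are visible in both strains.

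Feature classes were few at this end. It held 9 long terminal repeats (LTRs, the remnants of Tf retrotransposons), 1 full retrotransposon, 1 ribosomal protein gene (rpp103), 0 tRNA genes and 0 wtf genes. The 10 windows that touch an LTR averaged 0.50, 0.69 and 0.75 on the rad3∆ arrays, against 0.28, 0.23 and 0.41 on the WT arrays, and 9 of them were enriched in rad3∆ and 3 in WT. The 165 windows without an LTR averaged 0.35, 0.65 and 0.64 in rad3∆, against 0.11, 0.20 and 0.31 in WT, and 98 of them were enriched in rad3∆ and 40 in WT. The strain difference was 0.34 in both classes.

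Base composition went with the level and less with the difference. The fitted level had a Pearson r of -0.34 with G+C over the 175 windows in rad3∆ and of -0.28 in WT, and the fitted difference had one of -0.13, all as descriptions of neighbouring windows on shared arrays. The 58 windows with the least G+C (26.0% to 34.4%) averaged 0.68 ± 0.11 in rad3∆ and 0.31 ± 0.09 in WT, and the 59 with the most (37.1% to 45.5%) averaged 0.47 ± 0.23 in rad3∆ and 0.14 ± 0.10 in WT (SD, n = 3 each).

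Set against the other 5 chromosome ends, cut to the same length, this end was the highest in rad3∆ and the second highest in WT. The left end of chromosome III, which also borders rDNA, averaged 0.23 ± 0.04 in rad3∆ and 0.28 ± 0.07 in WT. The ends of chromosomes I and II ran between -0.25 ± 0.10 and 0.28 ± 0.08 in rad3∆ and between -0.41 ± 0.12 and -0.17 ± 0.08 in WT (SD, n = 3 each). The right end of III exceeded the mean of the other 5 by 0.32, 0.60 and 0.63 on the rad3∆ arrays, and by 0.40, 0.34 and 0.51 on the WT arrays. That excess did not differ between strains beyond the spread of the arrays, at a difference of 0.10 (exact permutation p = 0.40; -0.09, 0.26 and 0.12 on slides 1, 2 and 3).

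Strain differences as large or larger were seen at the right ends of chromosomes I and II, at 0.45 for each, with no overlap between strains. At the left end of III the difference was -0.05, with overlapping strains (exact permutation p = 0.50; -0.03, -0.03 and -0.08 on slides 1, 2 and 3), and 64 of its 186 windows had a fitted difference above 0. Over chromosome III away from its ends it was -0.09, also with overlap (exact permutation p = 0.20), and 24.5% of windows were above 0. The right end minus the left end of III was 0.17, 0.43 and 0.37 on the rad3∆ arrays, against -0.10, -0.06 and -0.04 on the WT arrays, with no overlap (exact permutation p = 0.10, the smallest possible; 0.27 after Benjamini-Hochberg adjustment over the 8 such comparisons made). Relative to chromosome III away from its ends, the right end stood at 0.21, 0.41 and 0.38 in rad3∆, against -0.16, -0.05 and -0.08 in WT (exact permutation p = 0.10). On each WT array, then, the right end was below the rest of its chromosome, and on each rad3∆ array above it.

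**Figure D4:**
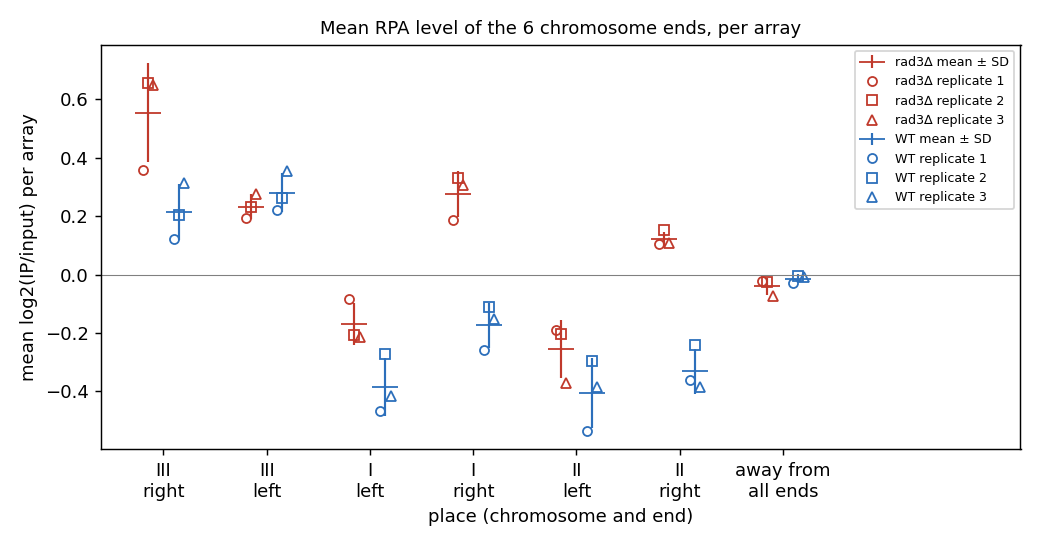
The mean log2(IP/input) per array is plotted for the 6 chromosome ends and for windows away from all ends, with rad3∆ to the left of WT at each place; symbols are the 3 arrays and bars are the mean ± SD. The strains separate at the right ends of chromosomes I, II and III and at the left end of I, and overlap at the left ends of II and III.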

How the data were processed

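RPA (Ssb1) was measured on 3 rad3∆ and 3 WT 2-colour Agilent arrays. The authors deposited Feature Extraction output: intensity values that were background-subtracted and dye-normalized per the file headers, with a log10 ratio of red over green. The software version in the submitters' processing notes is 10.7.3.1, whereas per the file headers the replicate 1 arrays of both strains (slide 1) were read with 10.7.1.1 and the other 4 with 10.7.3.1. The IP was green in replicates 1 and 2 and red in replicate 3, per the labels. Here log2(IP/input) was taken from the processed signals and centred on each array's median nuclear probe. Deposited log10 ratios matched these signals. 0 columns were left unused.

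Windows of 1 kb (at least 2 probes), bins of 10 kb (at least 10 probes) and genes (at least 2 probes) were fitted over all 6 arrays in limma 3.58.1 (R 4.3.3), with a mean per strain and a dye term, and tested with Benjamini-Hochberg adjustment over the whole table. Residual degrees of freedom numbered 3, and prior ones 8.22 (windows), 6.61 (bins) and 5.81 (genes). Plain means per array were compared by exact permutation. The code was tested on simulated data.

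Positions are those of the array design (an NCBI build labelled Feb2002 in the headers), counted from 1. Set against the ASM294v3 reference through base composition, 107 of 126 segments of 100 kb matched, and the 3 stretches of this chromosome end matched at offsets of 3, -2 and -1 bp. Second copies were matches of at least 85% identity over 100 bp or more.

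Named windows were the 5 highest and 5 lowest of each strain and the 5 largest and 5 smallest differences. Named coding genes were the 10 highest and 5 lowest, the 5 largest and 5 smallest differences, any that passed the strain test, and alr1, nnk1, ade5, puf6, dhm1, SPCC569.05C and SPCC569.04. The region, lists and tests were chosen with earlier results of these data known. The numbers pair the arrays: they shared slides per the file headers, and same-numbered arrays deviated together from their strain means (r = 0.34, 0.31 and 0.51 over windows).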

Additional observations from a re-analysis of the deposited data

Results flagged for a closer look

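The strain difference had opposite signs on all 3 slides at the right end of chromosome III and at the left end, the other end that borders rDNA. On slides 1, 2 and 3 it was 0.24, 0.45 and 0.34 at the right end, and -0.03, -0.03 and -0.08 at the left end. The left-end difference, -0.05 on average, was within the spread of the arrays (exact permutation p = 0.50), and chromosome III away from its ends stood at -0.09 (exact permutation p = 0.20). The gap between the mean differences was 0.39 log2 units, with an exact permutation p of 0.10 over the 6 arrays, the smallest this design can give, and 0.27 after adjustment over 8 comparisons. Groups of 3 arrays are too small for a test of single outlying arrays.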

How the results depend on the processing

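The mean strain difference of the chromosome end kept its sign in all 15 alternatives (0.24 with normexp to 0.42 relative to the rest of chromosome III; 0.29 to 0.44 without single arrays), and so did its excess over the other 5 ends in all 13 (0.04 to 0.20 without single arrays). With normexp the exact permutation p of the end's mean difference was 0.20, against 0.10 in the main setting, so full separation of the strains was lost. No gene passed in any of 16 alternatives. Enriched length in rad3∆ was 107 kb and moved to 24 kb with a threshold of 1 (80 to 118 kb without single arrays). In WT it was 43 kb and moved to 25 kb with mode centring, 75 kb with a threshold of 0.3 and 2 kb with a threshold of 1 (33 to 44 kb without single arrays). The count of windows that differed, 0, became 1 with the replicate block, 1 with 2 kb windows and 8 without both arrays of slide 2, and was 0 without any single array. The count of bins, 3, became 13 with the replicate block, 7 with mode centring, 6 with loess, and 0 without a dye term, with normexp or without slide 2 (0 to 8 without single arrays). With the block 100 windows were enriched in rad3∆ and 36 in WT, 0 were depleted in rad3∆ and 8 in WT, the longest run was 45 kb in rad3∆ and 15 kb in WT, and 0 genes passed the strain test. The input difference, 0.0085, changed sign without rad3∆ replicate 1 (-0.018), WT replicate 2 (-0.016) or WT replicate 3 (-0.00072), within -0.018 to 0.042. The causes were not tested. Leaving out windows with second copies, and the rest of chromosome III as the baseline, were chosen after seeing the data. The dimmest array was rad3∆ replicate 2, with 79.6% of nuclear probes well above background.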
